A study of Mus musculus with 12 samples.

Results

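The response of mouse hepatocytes to partial hepatectomy was compared between mice that expressed P16 in hepatocytes and control mice. The quantity described is a difference of differences for each gene. It is the log2 change from 0 h to 48 h in the P16 mice minus the log2 change from 0 h to 48 h in the GFP mice, and is called the difference of responses here. All genes that passed a filter on low read counts were taken, whatever their change, which left 12257 of the 31053 gene rows. A positive value means that the 48 h level, relative to 0 h, was higher in P16 mice than in GFP mice, and a value of 1 is a 2-fold difference.

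The animals were wild-type C57BL/6J mice, 3 months old and fed standard chow. They received AAV8-TBG-eGFP-P16 or the control vector AAV8-TBG-eGFP through the tail vein. Both vectors are adeno-associated viruses whose TBG promoter, from the thyroxine-binding globulin gene, is active mainly in hepatocytes. A week later, part of the mice had 70% of the liver removed. Hepatocytes were isolated by collagenase perfusion from mice without surgery (0 h) or 48 h after it, at a stated viability and purity of at least 95%, and their poly(A) RNA was sequenced. The 4 groups are GFP at 0 h, GFP at 48 h, P16 at 0 h and P16 at 48 h, each with 3 separate mice. Neither arm lacks the virus or the eGFP, no mouse had a sham operation, and 0 h and 48 h mice are different animals. In such bulk libraries fewer cells of a type and less RNA per cell cannot be told apart.

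P16, encoded by Cdkn2a, inhibits the cyclin D-dependent kinases CDK4 and CDK6 and thereby keeps the retinoblastoma protein active and the cell in G1; its lasting expression is a mark of cellular senescence. After partial hepatectomy the remaining hepatocytes leave quiescence, replicate DNA and divide, while the liver keeps making plasma proteins, bile acids and glucose. Inflammatory cytokines, above all IL-6 acting through STAT3, raise the acute phase proteins of hepatocytes, whereas growth hormone acting through STAT5 maintains male-biased liver genes such as the major urinary proteins.

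Cdkn2a, the gene that the vector carries, had 49.2, 6.38 and 25.1 CPM (read counts scaled to a common library size) in the P16 mice at 0 h; at 48 h it had 12.8, 26.2 and 18.8 CPM. In the GFP libraries it had no read at 0 h and 5 reads at 48 h, all in replicate 2. The P16 and GFP libraries did not overlap, and the transcript was present in every P16 library at both times. Its difference of responses, -3.95 (SE 5.35) with an adjusted p of 0.843, has no interpretation because the GFP arm was near 0. The 15 hepatocyte markers, among them albumin and transthyretin, summed to 89985 to 121167 CPM in the GFP libraries at 0 h and to 83723 to 90034 CPM in the P16 libraries at 48 h, with the other groups between 79133 and 104177 CPM, as the label states. Reads counted in genes ranged from 14617049 to 25409451 per library. GFP replicate 2 at 0 h and P16 replicate 2 at 48 h stood apart in acute phase genes: the serum amyloid gene Saa1 had 71.6, 6413 and 445 CPM in the GFP libraries at 0 h and 4010.3, 10217 and 2161 CPM in the P16 libraries at 48 h. The effect of leaving out these libraries is given for the genes past the test and for the lists whose counts it moved most.

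Most genes that changed after hepatectomy in both arms did so in the same direction. Of the 12257 genes, 4117 (33.6%) changed between 0 h and 48 h in the GFP mice and 4731 (38.6%) in the P16 mice at an adjusted p under 0.05. The changes of both arms had a Pearson r of 0.82 and a Spearman correlation of 0.72 across the 12257 genes, which are not independent of each other and were normalised together. Of the 3000 genes called in both arms, 2983 changed in the same direction and 17 in opposite directions. The median absolute log2 response was 0.40 in the GFP mice and 0.46 in the P16 mice.

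The difference of responses itself passed the test in 12 genes, 0.0979% of those tested: 4 were higher in the P16 arm (0.0326%) and 8 lower (0.0653%). At an unadjusted p under 0.05 there were 1451 genes (11.8%), of which 708 (5.78%) were higher and 743 (6.06%) lower. The median difference over all genes was 0.0015 on the log2 scale, the 5th and 95th percentiles were -0.95 and 1.22, and the median standard error was 0.29. Of the 12 genes, 3 had changed in opposite directions in both arms, 4 in the same direction in both arms, and 5 in the P16 arm at the threshold used but not in the GFP arm.

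**Figure D1:**
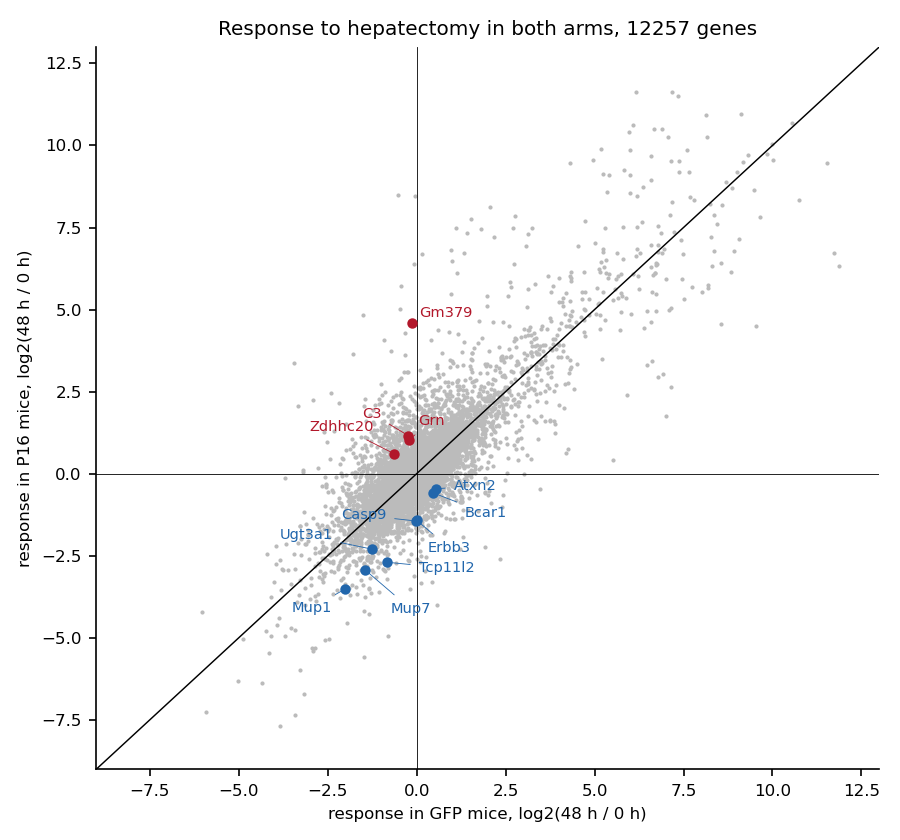
Each point is 1 of 12257 genes; the x axis is its log2 change from 0 h to 48 h in GFP mice and the y axis the same in P16 mice (3 libraries a group), and the diagonal marks equal responses. The 12 genes past the test of the difference are coloured, 4 higher in the P16 arm in red and 8 lower in blue; apart from Gm379, at 4.72, their differences lie between -1.85 and 1.40 on the log2 scale.

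Among the 12 genes were several signalling and adaptor proteins. Erbb3 encodes HER3, the neuregulin-binding member of the EGF receptor family that signals through its dimer partners (mm10 chromosome 10, 128567523 to 128589652, minus strand). Its level was 101, 84.8 and 88.1 CPM in GFP mice at 0 h, 92.6, 94.8 and 86.9 CPM in GFP mice at 48 h, 156, 127 and 148 CPM in P16 mice at 0 h and 58.7, 50.8 and 50.8 CPM in P16 mice at 48 h. The GFP libraries of both times overlapped, every P16 library at 0 h lay above them and every P16 library at 48 h lay below them. Erbb3 fell 2.68-fold in the P16 mice (adjusted p 5.17e-08), its log2 response in the GFP mice was 0.0041 (SE 0.12), and the difference of responses was -1.43 (SE 0.17) with an adjusted p of 0.00131. It was the only one of the 12 that passed in each of the 22 alternative settings tried.

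Bcar1 encodes p130Cas, a Src substrate and scaffold of focal adhesions (chromosome 8, 111710474 to 111743809). It had 29.1, 27.7 and 24 CPM in GFP mice at 0 h, 41.7, 34.9 and 34.1 at 48 h, 40, 38.4 and 33.9 in P16 mice at 0 h and 22.8, 24.3 and 28 at 48 h. The 48 h libraries were all above the 0 h libraries in the GFP arm and all below them in the P16 arm. Both responses passed, with log2 changes of 0.45 and -0.58, and the difference was -1.04 (SE 0.19) at an adjusted p of 0.0392. Casp9, the initiator caspase of the mitochondrial apoptosis pathway (chromosome 4, 141793612 to 141815976), had 12, 10.4 and 12.6 CPM in GFP mice at 0 h and 10.8, 10.7 and 12.9 at 48 h, against 17, 14.8 and 15.6 CPM in P16 mice at 0 h and 6.56, 5.18 and 5.69 at 48 h. As for Erbb3, the GFP times overlapped and the P16 libraries lay above them at 0 h and below them at 48 h. The difference was -1.41 (SE 0.24) at an adjusted p of 0.0351. A stretch of 94 exon bases of Casp9 overlaps Cela2a or Ctrc, and whether reads were counted by strand is not stated in the labels or notes.

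Secreted proteins made up another group of the 12. C3, the central component of the complement cascade and an acute phase protein (chromosome 17, 57203970 to 57228136), had 5586, 8214 and 6204 CPM in GFP mice at 0 h, 5807, 5651 and 5488 at 48 h, 4210.3, 4841 and 4557 in P16 mice at 0 h and 8985, 13269.9 and 8184 at 48 h. The P16 libraries at 48 h were all above those at 0 h, whereas the GFP libraries of both times overlapped. C3 rose 2.24-fold in the P16 mice (adjusted p 8.33e-05), and the difference of responses was 1.40 (SE 0.26) at an adjusted p of 0.0471. Without GFP replicate 2 at 0 h and P16 replicate 2 at 48 h it was 0.99 at an adjusted p of 0.0158; without the latter alone the adjusted p was 0.0676.

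Grn encodes progranulin, a secreted protein that is also processed to granulins in lysosomes (chromosome 11, 102430315 to 102437048). Its levels were 137, 207 and 146 CPM in GFP mice at 0 h, 135, 154 and 133 at 48 h, 89.6, 89.8 and 92.7 in P16 mice at 0 h and 186, 212 and 159 at 48 h. The P16 libraries at 0 h were the lowest of all, and those at 48 h were all above them. Grn rose 2.05-fold in the P16 mice, and its difference of responses was 1.24 (SE 0.21) at an adjusted p of 0.0351. The highest GFP library at 0 h was replicate 2, which also had the highest summed level of 21 macrophage markers, 366 CPM against 141 and 217 CPM in the other GFP libraries at 0 h. Without it the difference was 1.03 at an adjusted p of 0.0195, and without P16 replicate 2 at 48 h it was 1.14 and did not pass (adjusted p 0.0676). Grn shares 68 exon bases with Fam171a2.

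Mup1 and Mup7 encode major urinary proteins, lipocalins that male mouse liver secretes in large amounts under growth hormone control. Mup7 (chromosome 4, 60066469 to 60070475) had 2637, 3420.1 and 3613 CPM in GFP mice at 0 h, 1391, 966 and 1201 at 48 h, 3294, 5453 and 3798 in P16 mice at 0 h and 545, 564 and 529 at 48 h. It fell in both arms, 2.72-fold in the GFP mice and 7.66-fold in the P16 mice, and all 48 h libraries of the P16 arm lay below those of the GFP arm. The difference was -1.49 (SE 0.27) at an adjusted p of 0.0351. For Mup1 (chromosome 4, 60498012 to 60501960) the levels were 32.5, 39.6 and 46.6, then 10.5, 10.1 and 8.9 CPM in the GFP mice and 36.1, 60.2 and 41.1, then 4.4, 4.13 and 3.55 CPM in the P16 mice, with a difference of -1.51 (SE 0.27) at the same adjusted p. The order of the groups was that of Mup7. These genes are near-identical copies of each other, so reads may have been assigned to either, and they are not independent results.

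The other genes of the 12 were enzymes, an RNA-binding protein and genes of less known function. Ugt3a1, of the UDP-glycosyltransferase superfamily (chromosome 15, 9276888 to 9315032), fell from 42.5, 38.1 and 37.3 to 18.5, 14 and 16.9 CPM in the GFP mice and from 38.2, 43.1 and 48.1 to 8.91, 9.12 and 8.26 CPM in the P16 mice. The 0 h levels overlapped between arms and the 48 h levels did not, with a difference of -1.05 (SE 0.20) at an adjusted p of 0.0471. Zdhhc20, a protein palmitoyltransferase (chromosome 14, 57832703 to 57890276), went from 15.9, 15.1 and 18 to 9.83, 10.3 and 11.5 CPM in the GFP mice and from 11.3, 12 and 9.91 to 15.8, 16.6 and 18.2 CPM in the P16 mice. It fell in the former and rose in the latter, with log2 responses of -0.63 and 0.61 and a difference of 1.23 (SE 0.22) at an adjusted p of 0.0351. Atxn2, the RNA-binding protein ataxin-2 (chromosome 5, 121711337 to 121816493), did the reverse, from 39.4, 41.1 and 37.9 to 57.5, 58.5 and 55.8 CPM in the GFP mice and from 67.1, 50.6 and 55.2 to 41.7, 36.4 and 47.6 CPM in the P16 mice. No 48 h library of Atxn2 overlapped the 0 h libraries of its own arm; the difference was -0.995 (SE 0.18) at an adjusted p of 0.0392. It shares 99 exon bases with Sh2b3.

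Tcp11l2 (chromosome 10, 84576626 to 84614359) fell from 23.9, 28.8 and 18.3 to 13.8, 10.1 and 15.5 CPM in the GFP mice and from 32, 22.7 and 31.6 to 4.55, 4.5 and 4.25 CPM in the P16 mice. The P16 libraries at 48 h were the lowest of all libraries, and the difference was -1.85 (SE 0.28) at an adjusted p of 0.0131. The gene model Gm379 (chromosome X, 108664004 to 108664891) had 2.03, 4.63 and 2.32 CPM in GFP mice at 0 h and 1.95, 3.46 and 2.94 at 48 h. In the P16 mice it had 0.0794, 0.608 and 0.212 CPM at 0 h, from 14 reads in all, and 5.3, 11.1 and 7 CPM at 48 h. The P16 libraries were the lowest at 0 h and the highest at 48 h. The difference was 4.72 (SE 0.68) at an adjusted p of 0.0102, from few reads at 0 h.

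**Figure D2:**
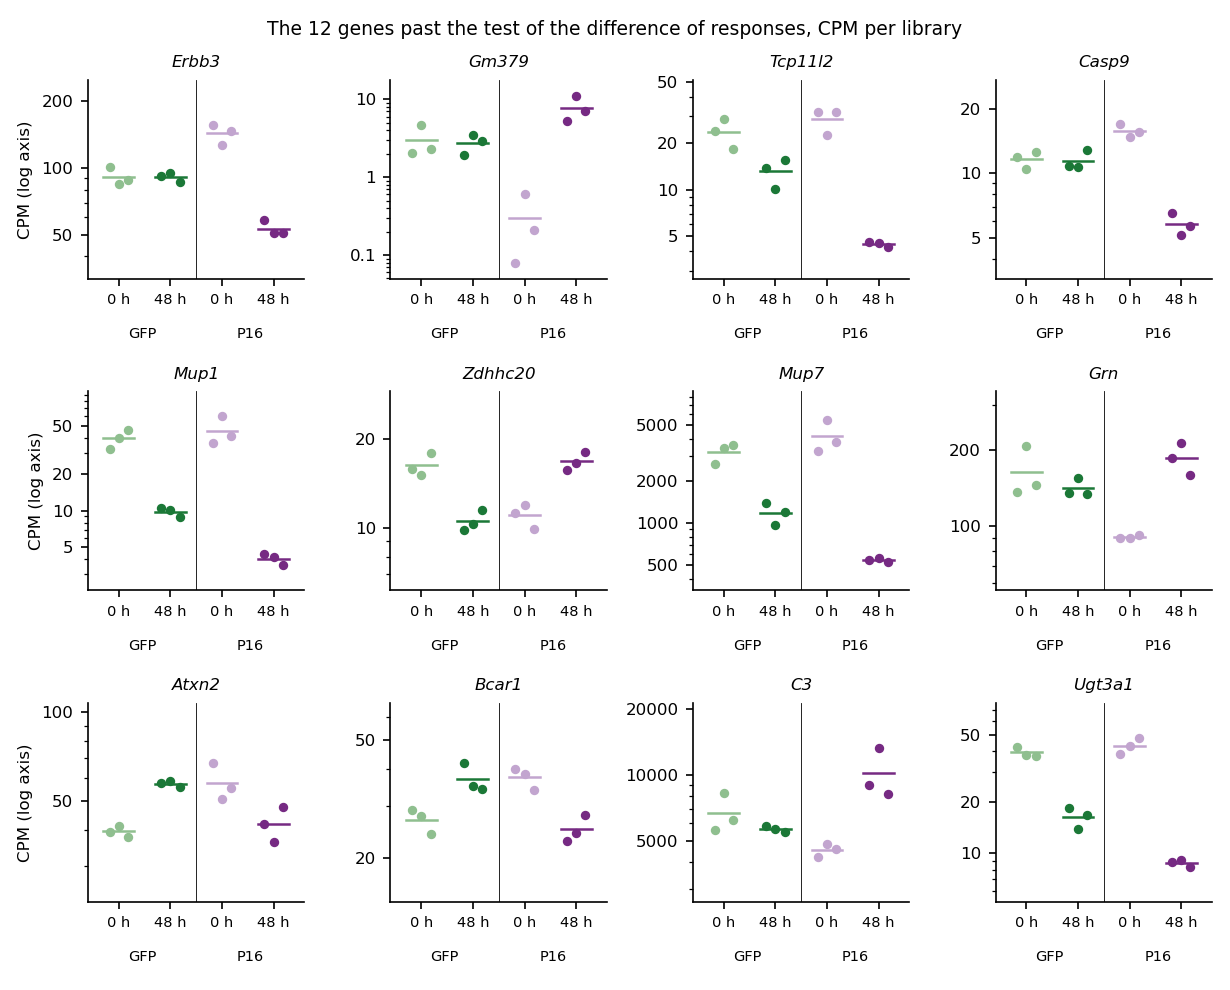
Each panel is 1 of the 12 genes past the test; points are single libraries and lines group means, in CPM on a log axis, with GFP mice to the left and P16 mice to the right of the divider. Erbb3 and Casp9 changed in the P16 mice with overlapping GFP times, Zdhhc20, Atxn2 and Bcar1 moved in opposite directions, and Mup1, Mup7, Ugt3a1 and Tcp11l2 fell further in the P16 mice.

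How far these calls rest on single libraries and settings differed between the genes. The direction of all 12 was the same in all 22 alternatives. The number past the threshold, however, ranged from 1 of the 12 with limma-voom to all 12 with DESeq2. Gm379 passed in 21 of the 22, Tcp11l2 in 19, Casp9 in 17, Grn in 15, Mup1 in 13 and the other 6 in 9 to 12. Without P16 replicate 2 at 48 h, 3 of the 12 passed, Erbb3, Gm379 and Tcp11l2; the other 9, among them Casp9, Grn, C3 and both Mup genes, each had an adjusted p of 0.0676. Without this library and GFP replicate 2 at 0 h, 8 of the 12 passed, and Casp9 (0.0528), Ugt3a1 (0.0526), Mup1 (0.0642) and Mup7 (0.0912) did not. Without GFP replicate 1 or replicate 3 at 48 h, 2 genes passed in all, Erbb3 and Gm379.

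**Figure D3:**
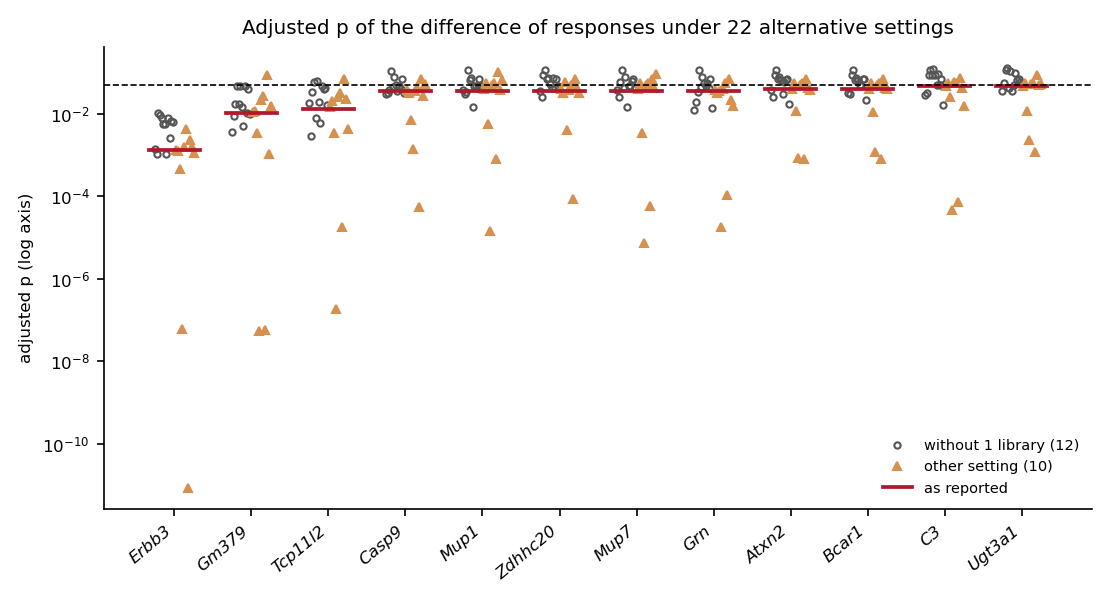
For each of the 12 genes the adjusted p of the difference of responses (log axis) is shown as reported (red line), without each library in turn (12 open circles) and under 10 other settings (triangles); the dashed line is 0.05. All 22 marks of Erbb3 are below the line, while most circles of Ugt3a1, Atxn2 and C3 are above it.

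A further 18 genes had the next lowest p among genes of at least 5 CPM, with adjusted p from 0.052 to 0.0557, and did not pass. Those with a positive difference were the fibrinogen genes Fga and Fgg, Top2a, G6pc (the last enzyme of glucose release, 1.21), the kinase Sgk1 (1.59), the mitochondrial carriers Ucp2 (1.504) and Slc25a25 (1.00), and Tlnrd1 (1.68). Those with a negative difference were the fatty acid sensing nuclear receptor Ppara (-1.33), the P450 gene Cyp3a59 (-1.13), the glucuronosyltransferase Ugt1a6b (-1.15), the ephrin receptor Epha2 (-1.42), the receptor adaptor Grb7 (-0.93), the GTPase-activating protein Dlc1 (-1.16), Kank1 (-0.93), Rnf186 (-1.35), Hykk (-1.15) and Foxk1 (-1.31). Of the exon bases of Ugt1a6b, 1444 of 2382 overlap other genes, mostly of the Ugt1a family, so its reads are uncertain; Ucp2 shares 305 with Dnajb13 and Slc25a25 379 with Naif1. Ppara had 17.7, 20 and 18.5 CPM in GFP mice at 0 h, 16, 16.1 and 23.2 at 48 h, 32.9, 20.8 and 28.3 in P16 mice at 0 h and 9.61, 12.5 and 9.99 at 48 h. Its P16 libraries at 48 h were below all others. Grb7, whose protein binds receptors of the EGF receptor family, had 139, 103 and 111 and then 78.9, 89.4 and 88 CPM in the GFP mice, and 171, 134 and 141 and then 62.3, 50.9 and 57.3 CPM in the P16 mice. It fell in both arms, with P16 libraries at 48 h below all GFP libraries.

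The 17 genes called in opposite directions were few beside the 2983 called in the same direction. The 10 that rose in the GFP mice and fell in the P16 mice included Atxn2, Bcar1, Cyp3a59, Ocln, Ctdsp2, Bach2, Adgrf1, Olig1 and Mst1r. Ocln, the tight junction protein occludin, had 16.6, 9.66 and 16.2 and then 20.8, 23.2 and 21.8 CPM in the GFP mice, and 21.7, 19.9 and 21.6 and then 18, 9.12 and 14.2 CPM in the P16 mice. The 48 h libraries were above the 0 h libraries in the GFP mice and below them in the P16 mice, without overlap. The difference was -1.25 (SE 0.31) and did not pass (adjusted p 0.11). Mst1r, the receptor of macrophage-stimulating protein, was low, at most 1.35 CPM, with a difference of -4.93 (SE 1.10) and an adjusted p of 0.0706.

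The 7 genes that fell in the GFP mice and rose in the P16 mice included Zdhhc20, Fgb, Fgg, Ctsz, Fam174b and Cd34. Fgb and Fgg encode fibrinogen chains. Ctsz, the lysosomal protease cathepsin Z, had log2 responses of -0.39 and 0.36 (difference 0.75, adjusted p 0.119). Cd34 was counted with 23, 3, 2 and 32 reads in the GFP groups at 0 h and 48 h and the P16 groups at 0 h and 48 h, too few for a reliable fold.

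Acute phase genes mostly had a positive difference of responses, 27 of 30. All 30 list members were tested; 24 had a positive difference with an unadjusted p under 0.05 and none a negative one, against 5.78% and 6.06% of all genes, and C3 alone passed after adjustment. The median difference of the list was 1.55 on the log2 scale, made of a median response of -0.41 in the GFP mice and 1.21 in the P16 mice; over all genes it was 0.0015. In the P16 mice 20 members rose and 2 fell, where 19.6% and 19% of all genes did. In the GFP mice 1 rose and 9 fell, where 17.2% and 16.4% did. The median stayed positive in all 22 alternatives, between 1.01 and 1.76.

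Fibrinogen, the soluble precursor of fibrin clots, is built from the products of Fga, Fgb and Fgg. Fga had 3698, 5136 and 3668 CPM in GFP mice at 0 h, 3215, 2899 and 2488 at 48 h, 3241, 3658 and 3422 in P16 mice at 0 h and 6489.7, 9281 and 4494 at 48 h. For Fgb the levels were 4437, 5338 and 4703, then 3156, 3014 and 2679.9 CPM in the GFP mice and 4464, 4862 and 4733, then 6954, 11942 and 5212 CPM in the P16 mice. Fgg had 2958, 3617 and 3176, then 1999.8, 1948 and 1573 CPM in the GFP mice and 2817, 3065 and 3067, then 4408, 7326 and 3290.2 CPM in the P16 mice. For all 3 genes every GFP library at 48 h was below every GFP library at 0 h, every P16 library at 48 h was above every P16 library at 0 h, and P16 replicate 2 was the highest each time. The differences of 1.51, 1.49 and 1.57 had adjusted p of 0.0537, 0.0557 and 0.0532 and did not pass. Without GFP replicate 2 at 0 h and P16 replicate 2 at 48 h they were 1.04, 1.01 and 1.11, smaller, with adjusted p of 0.0374, 0.0268 and 0.0162. Both libraries stood apart in acute phase genes, so leaving them out lowers the spread of these genes by construction. With only the former or only the latter left out, none of the 3 passed (adjusted p 0.0676 to 0.0995). The genes lie side by side, at chromosome 3, 83026076 to 83033627, 83040141 to 83049863 and 83007724 to 83015049 of mm10, and are not independent of each other.

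The promoters of these genes and of C3 are shown because they moved together and because STAT3-driven acute phase promoters are known to carry the short element CTGGGA. Each line holds the 250 bases before the gene's RefSeq start, which for Fga lies inside the GENCODE gene, 5′ to 3′ on the gene's strand, from RefSeq on GRCm38.p6, with CTGGGA in capitals. Fga is at chr3:83025903-83026152 (plus strand), Fgb at chr3:83049864-83050113 (minus), Fgg at chr3:83007474-83007723 (plus) and C3 at chr17:57228137-57228386 (minus).
Fga: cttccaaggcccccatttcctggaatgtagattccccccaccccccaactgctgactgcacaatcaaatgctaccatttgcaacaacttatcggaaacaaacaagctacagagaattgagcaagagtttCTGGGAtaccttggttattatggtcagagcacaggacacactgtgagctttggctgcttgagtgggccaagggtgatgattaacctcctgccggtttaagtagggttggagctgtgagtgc
Fgb: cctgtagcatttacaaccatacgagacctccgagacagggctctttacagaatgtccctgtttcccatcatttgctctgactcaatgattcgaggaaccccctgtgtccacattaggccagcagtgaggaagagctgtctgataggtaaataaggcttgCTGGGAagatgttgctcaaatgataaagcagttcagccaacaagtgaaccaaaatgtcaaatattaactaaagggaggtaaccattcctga
Fgg: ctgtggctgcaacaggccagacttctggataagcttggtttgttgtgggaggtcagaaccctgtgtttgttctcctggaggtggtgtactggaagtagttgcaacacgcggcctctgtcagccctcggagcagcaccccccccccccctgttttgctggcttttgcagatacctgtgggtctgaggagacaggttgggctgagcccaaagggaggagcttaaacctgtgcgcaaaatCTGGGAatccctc
C3: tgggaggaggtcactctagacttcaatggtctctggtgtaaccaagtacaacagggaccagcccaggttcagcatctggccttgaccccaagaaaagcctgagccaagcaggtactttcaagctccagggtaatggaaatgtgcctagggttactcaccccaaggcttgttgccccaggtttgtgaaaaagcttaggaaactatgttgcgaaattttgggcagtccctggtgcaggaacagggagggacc
CTGGGA, searched on both strands, began 121 bases before the start of Fga, 91 before that of Fgb and 13 before that of Fgg, and these letters were not in the window of C3. The wider STAT spacing TTCNNNGAA, whose matches did not overlap the others, began 234 bases before the start of Fga and 162 before that of Fgb. CTGGGA was in 27% of 32851 promoter windows of the same length and in 13 of 27 windows of 24 acute phase genes (48.1%). For TTCNNNGAA the shares were 7.02% and 22.2%. The acute phase windows include those shown above, and some genes had several windows. Whether the shares differ was not tested. A match is a description of the letters and not a site of binding. The 23 tested genes of NF-kB and IL-6/STAT3 feedback had a median difference of -0.08, with 11 positive and 12 negative. At an unadjusted p under 0.05, 2 were positive and 4 negative, against 5.78% and 6.06% of all genes. The part of STAT3 in the acute phase results was not tested.

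Other acute phase genes rose from lower P16 levels at 0 h. Saa1 and Saa2, the inducible serum amyloid A genes, had 33.8, 99.1 and 60.7 CPM and 12.9, 20.4 and 17 CPM in P16 mice at 0 h and 4010.3, 10217 and 2161 CPM and 3807, 12019.5 and 1951 CPM at 48 h. In the GFP mice Saa1 had 71.6, 6413 and 445 CPM at 0 h and 2442, 1951 and 2230.1 CPM at 48 h, and Saa2 had 29.1, 5593 and 362 and 2180.4, 1713 and 1949 CPM. Replicate 2 was the highest GFP library at 0 h by far, and the differences of 6.47 (SE 2.00) and 8.50 (SE 2.27) did not pass (adjusted p 0.261 and 0.193). Without GFP replicate 2 at 0 h they were 3.30 and 5.14. Mt2, a metallothionein, had no read in the P16 mice at 0 h and 128 reads at 48 h, of which 105 were in replicate 2 and 11 and 12 in the others. Its difference was 6.85 without P16 replicate 2 at 48 h (unadjusted p 0.0156). Without GFP replicate 2 at 0 h it was 4.35 (unadjusted p 0.9998), so the result of Mt2 rested on that GFP library. A stretch of 432 of its 588 exon bases overlaps Gm45774.

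Both libraries that stood apart were also left out together. The list median was then 1.01, 19 of the 29 members tested had a positive difference with an unadjusted p under 0.05, where 4.41% of all genes did, and 10 members passed after adjustment, where 0.153% of all genes did in this direction. The 10 were C3, Fga, Fgb, Fgg, Hp, Hpx, Orm1, Apcs, Lbp and Serpina3m, with differences from 0.81 for Serpina3m to 1.40 for Apcs. These libraries were picked for standing apart in acute phase genes, so leaving them out lowers the spread of these genes by construction. Without P16 replicate 2 at 48 h alone no member passed, where 0.00794% of all genes did in this direction, and 23 of 30 had an unadjusted p under 0.05, all positive, against 4.18% of all genes. The mean log2 level of the 30 members, relative to the mean of the GFP libraries at 0 h, was 0.74, 1.62 and 0.41 for P16 mice at 48 h and -0.99, -0.75 and -1.10 for P16 mice without surgery. It was 0.01, 0.01 and -0.09 for GFP mice at 48 h and -0.86, 1.11 and -0.24 for GFP mice without surgery. The P16 libraries separated by time, and GFP replicate 2 at 0 h lay within the range of the P16 libraries at 48 h.

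**Figure D4:**
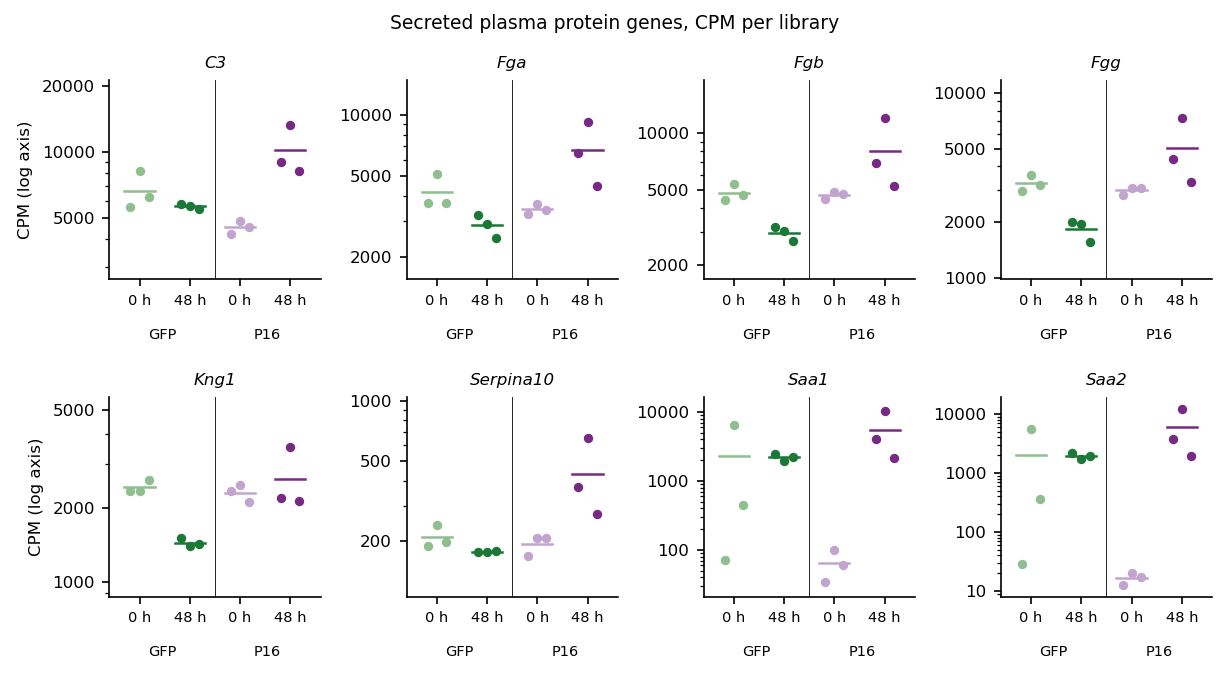
Levels of 8 plasma protein genes in each library, in CPM on a log axis, with points for libraries and lines for group means. The fibrinogen genes were lower at 48 h than at 0 h in the GFP mice and higher in the P16 mice, without overlap, while Saa1 and Saa2 ranged from 71.6 to 6413 CPM and from 29.1 to 5593 CPM among the GFP libraries at 0 h.

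Complement and coagulation genes, also plasma proteins made by hepatocytes, were lower at 48 h for many members, fewer of them in the P16 mice for complement. Of 21 complement genes, 16 fell and 1 rose in the GFP mice, and 8 fell and 4 rose in the P16 mice; of all genes, 16.4% fell and 17.2% rose in the GFP mice, and 19% and 19.6% in the P16 mice. The median difference was 0.39, with 9 members positive at an unadjusted p under 0.05, against 5.78% of all genes, none negative, and C3 past the test.

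Of 25 coagulation genes, 15 fell in the GFP mice and 14 in the P16 mice, against 16.4% and 19% of all genes. The median difference was 0.35, 8 members had a positive difference at an unadjusted p under 0.05, against 5.78% of all genes, and none passed. Serpina10, the protein Z-dependent inhibitor of factor X, had 189.8, 241 and 198 and then 175, 176 and 178 CPM in the GFP mice, and 169, 208 and 206 and then 371, 650.4 and 271 CPM in the P16 mice (difference 1.40 (SE 0.34), adjusted p 0.119). Every P16 library at 48 h was above all others. Kng1, which encodes kininogen, the precursor of bradykinin, had a difference of 0.93 (adjusted p 0.123).

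Thbd and F2r, the thrombin-binding thrombomodulin and the thrombin receptor PAR1 that the series' title names, were also compared. Thbd had 0.527, 2.01 and 2.09 CPM in GFP mice at 0 h, 3.11, 3.81 and 2.1 at 48 h, 0, 0.486 and 0.637 in P16 mice at 0 h and 3.7, 6.1 and 3.17 at 48 h. It rose in the P16 mice (log2 3.45 (SE 0.63), adjusted p 0.000349), where the times did not overlap, and its difference of responses of 2.51 (SE 0.83) did not pass (adjusted p 0.221). F2r had 27.1, 26.3 and 33.4, then 24.2, 23.4 and 24.7 CPM in the GFP mice and 16, 36.5 and 19.5, then 13.5, 8.07 and 15.3 CPM in the P16 mice. It fell in the P16 mice (log2 -0.97 (SE 0.28), adjusted p 0.0154), and its difference of -0.70 (SE 0.39) did not pass (adjusted p 0.519).

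Chaperones and folding enzymes of the endoplasmic reticulum, where secreted proteins are folded, had a positive median difference of 0.58. Of 26 members, 12 were positive at an unadjusted p under 0.05 and none negative, against 5.78% and 6.06% of all genes. None passed the test, and 24 had a positive value, where 6149 of 12257 genes did. Sdf2l1, a cofactor of the chaperone BiP, had 41.4, 58.8 and 48 and then 32.4, 22.1 and 25.6 CPM in the GFP mice, and 66.6, 47.9 and 68.6 and then 81.2, 101 and 59.5 CPM in the P16 mice. It fell in the GFP mice, where the times did not overlap, and in the P16 mice the times overlapped (difference 1.28 (SE 0.29), adjusted p 0.089). Pdia4, a disulfide isomerase, had a difference of 0.74 (adjusted p 0.145). Without both libraries that stood apart the list median was 0.41. Of the members, 7 were then positive at an unadjusted p under 0.05, against 4.41% of all genes.

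Transcripts encoded by mitochondrial DNA were lower at 48 h, less so in the P16 mice by their median. All 12 tested members fell in the GFP mice, with a median log2 change of -1.65, and 7 fell in the P16 mice, with a median of -0.77. Of all genes, 16.4% fell in the GFP mice and 19% in the P16 mice. The median difference was 0.86, and 10 members were positive at an unadjusted p under 0.05, against 5.78% of all genes. Without both libraries that stood apart none was, against 4.41% of all genes, and the median was 0.59. mt-Nd1, of respiratory complex I, had 11856, 21782 and 17524 CPM in the P16 libraries at 48 h against 10917, 10173 and 8776 CPM in the GFP libraries, so that P16 replicate 2 was again the highest. The difference for mt-Nd1 was 1.05 (SE 0.33) (adjusted p 0.202). The 76 nuclear respiratory chain genes had a median difference of 0.05, which changed sign in 4 of the 22 alternatives. It was lowest, -0.21, with library size alone, where the median of all genes was -0.25. Of these 76, 3.95% had an unadjusted p under 0.05, against 11.8% of all genes.

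No marker of another liver cell type passed the test of the difference, which 0.0979% of all genes passed. All 21 macrophage markers had a positive difference of responses, where 6149 of 12257 genes did, with a median of 1.57. At an unadjusted p under 0.05, 7 were positive, against 5.78% of all genes. Their summed level was 141 to 366 CPM in the GFP mice at 0 h, 162 to 239.6 at 48 h, 87.7 to 119 in the P16 mice at 0 h and 163 to 187 at 48 h. The P16 libraries at 0 h were below all others, and no marker was at 0 throughout. Without GFP replicate 2 at 0 h the median was 0.68, and 3 members were positive at an unadjusted p under 0.05, where 5.76% of all genes were. Timd4, a receptor of resident Kupffer cells, had 1.36, 1.34 and 1.35 and then 0.993, 0.703 and 0.606 CPM in the GFP mice, and 0.397, 0.122 and 0.354 and then 1.05, 1.6 and 1.07 CPM in the P16 mice (difference 2.89 (SE 0.78), adjusted p 0.136). The part of macrophage RNA in the acute phase, Grn and C3 results was not tested.

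All 19 endothelial markers were positive too, with a median of 0.67, but of 0.14 without both libraries that stood apart. Their summed level was 139.8 to 245 CPM in the GFP mice at 0 h, again highest in replicate 2, and 87.5 to 139 CPM at 48 h. In the P16 mice it was 101 to 118 CPM at 0 h and 97.9 to 153 CPM at 48 h, and these times overlapped. At an unadjusted p under 0.05, 3 members were positive, against 5.78% of all genes. Without both libraries none was, against 4.41% of all genes. Stellate cell markers had a median of 0.07, which changed sign in 4 of the 22 alternatives. It was lowest, -0.18, with library size alone, where the median of all genes was -0.25. None of 14 had an unadjusted p under 0.05, where 11.8% of all genes did. Of 14 neutrophil markers, Prtn3, a granule protease of myeloid precursors, was the only one tested; it had 13.4, 14.1 and 7.46 CPM in the GFP mice and 69.1, 210.1 and 76.9 CPM in the P16 mice at 48 h, against at most 1.73 CPM at 0 h. It rose in both arms, and its difference of 4.25 (SE 1.24) did not pass (adjusted p 0.231). The defining neutrophil markers Ly6g and Retnlg were at 0 in every library.

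Genes of cell division rose in both arms, and their levels at 48 h were close. All 44 mitosis genes rose in the GFP mice and all 44 in the P16 mice, with median log2 responses of 6.59 and 6.74. Of all genes, 17.2% and 19.6% rose. The median difference of responses was 0.46; 12 members were positive and 4 negative at an unadjusted p under 0.05, against 5.78% and 6.06% of all genes, and none passed. Top2a and Aurkb passed without both libraries that stood apart, where 0.153% of all genes did in this direction. The median difference of the P16 from the GFP arm was -0.46 at 0 h and -0.04 at 48 h. Mki67, the marker of cycling cells, had 0.377, 0.447 and 0.524 CPM in the GFP mice and 0.0794, 0.0608 and 0.142 CPM in the P16 mice at 0 h, and 98.8, 88 and 78.9 and 87.1, 79.3 and 111 CPM at 48 h. The arms did not overlap at 0 h and overlapped at 48 h, and the difference of 2.25 (SE 0.56) did not pass (adjusted p 0.103).

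Top2a, the topoisomerase that untangles chromosomes, had 1 read in the P16 mice at 0 h and 2726 at 48 h, a ratio of 2041 with an exact counting interval of 366 to 80654. In the GFP mice it had 30 reads at 0 h, 47.7, 37.4 and 53.6 CPM at 48 h and a 67.4-fold rise; the 48 h arms overlapped. Aurkb, the kinase of the chromosomal passenger complex, had no read in the P16 mice at 0 h and rose at least 314-fold there, with the floor of 3 reads over the group, against 72-fold in the GFP mice. The interval and the floor cover counting error only. The 43 DNA replication genes had a median difference of 0.13, which changed sign in 3 of the 22 alternatives. It was lowest, -0.13, with library size alone, where the median of all genes was -0.25. Of these 43, 11.6% had an unadjusted p under 0.05, close to the 11.8% of all genes.

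Regulators of G1 showed no pass. Ccnd1, cyclin D1, the partner of the kinases that P16 inhibits, had 2.41, 2.07 and 3.89 CPM in GFP mice at 0 h, 49.7, 51.8 and 63.8 at 48 h, 1.83, 3.34 and 2.62 in P16 mice at 0 h and 34.4, 25.1 and 28.2 at 48 h. It rose in both arms, 20-fold and 11.1-fold, and at 48 h all P16 libraries were below all GFP libraries. The difference of -0.85 (SE 0.33) did not pass (adjusted p 0.304), and 1100 of its 4709 exon bases overlap LTO1. None of 7 CDK inhibitors had an unadjusted p under 0.05, where 11.8% of all genes did. Cdkn1a, encoding P21, had 6.55, 31 and 12.8 and then 41.5, 63.9 and 44.6 CPM in the GFP mice, and 3.26, 4.32 and 8.92 and then 57.2, 26.9 and 57.5 CPM in the P16 mice (difference 1.54 (SE 0.84), adjusted p 0.527). Without GFP replicate 2 at 0 h the difference was 0.73. It rose in the P16 mice at an adjusted p of 0.00491, and in the GFP mice the times did not overlap at an adjusted p of 0.0693. Cdkn2b, encoding P15 next to Cdkn2a, did not pass the filter on low counts.

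Among 22 p53 targets, 3 (13.6%) had an unadjusted p under 0.05, close to the 11.8% of all genes. All 3 were negative, against 6.06% of all genes, and the list median was -0.14. Gdf15, a stress-induced hormone, had 58.4, 22.4 and 30.9 and then 76.4, 89.4 and 89.2 CPM in the GFP mice, and 172, 102 and 143 and then 125, 119 and 112 CPM in the P16 mice. It rose in the GFP mice, while in the P16 mice the level at 0 h was already above every GFP library (difference -1.42 (SE 0.42), adjusted p 0.203). Of 31 senescence-associated secretory genes 14 were tested, with a median of 0.41. At an unadjusted p under 0.05, 2 were positive and 1 negative, against 5.78% and 6.06% of all genes. Icam1, an adhesion molecule for leukocytes, rose in the P16 mice (log2 2.14 (SE 0.29)), with a difference of 1.53 (SE 0.40) and an adjusted p of 0.122; without GFP replicate 2 at 0 h the difference was 1.00. Lmnb1, the nuclear lamina protein lamin B1, rose 7.64-fold in the GFP mice and 3.07-fold in the P16 mice, with a difference of -1.32 (SE 0.34) that did not pass (adjusted p 0.119).

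Of 27 growth hormone axis and male-biased genes, 21 fell in each arm and none rose. Of all genes, 16.4% fell and 17.2% rose in the GFP mice, and 19% and 19.6% in the P16 mice. The median difference was -0.40, and 22 members were negative, where 6108 of 12257 genes were. At an unadjusted p under 0.05, 6 were negative and 1 positive, against 6.06% and 5.78% of all genes. Mup1 and Mup7 passed, where 0.0653% of all genes did in this direction. Without both libraries that stood apart the median was -0.35, and neither passed (adjusted p 0.0642 and 0.0912), where 0.0723% of all genes did in this direction.

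Of 27 hepatocyte transcription factors and nuclear receptors, 9 were negative at an unadjusted p under 0.05 and none positive. The shares of all genes were 6.06% and 5.78%. None passed, and the median was -0.11. Cebpa, a factor that maintains hepatocyte differentiation and restrains growth, had 555, 555 and 540.4 and then 343, 248 and 293 CPM in the GFP mice, and 555, 695 and 584 and then 202, 210.2 and 154 CPM in the P16 mice. It fell in both arms, the 48 h libraries of the P16 arm lying below those of the GFP arm, with a difference of -0.80 (SE 0.21) and an adjusted p of 0.125. Without both libraries Ppara passed (adjusted p 0.0314), and 8 members were negative at an unadjusted p under 0.05, against 5.01% of all genes.

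Bile acid genes had a median difference of -0.38, with 6 of 24 negative at an unadjusted p under 0.05, against 6.06% of all genes, and none positive. Without both libraries that stood apart 3 were negative, against 5.01% of all genes, and 1 was positive. Cyp8b1, the sterol 12-hydroxylase that makes cholic acid, fell from 616, 389 and 564 to 43.9, 13.8 and 18.2 CPM in the GFP mice and from 393, 505 and 525 to 6.36, 3.94 and 6.63 CPM in the P16 mice. Its 48 h arms did not overlap (difference -2.02 (SE 0.58), adjusted p 0.209). Abcc2, a canalicular exporter of conjugates, rose in the GFP mice (log2 0.80 (SE 0.18)) and had -0.13 in the P16 mice (difference -0.93, adjusted p 0.141). Of 29 lipid droplet and lipogenesis genes, 6 were negative and 2 positive at an unadjusted p under 0.05. Of all genes, 6.06% and 5.78% were. The median of this list was -0.29, but -0.05 without both libraries. Lpin1, a phosphatidate phosphatase and coactivator, fell in the P16 mice (log2 -1.16 (SE 0.26); difference -1.26, adjusted p 0.171).

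Clock genes had a median difference of -0.31. At an unadjusted p under 0.05, 4 of 20 were negative and 2 positive, against 6.06% and 5.78% of all genes. Cry2, a repressor of the clock, had 18, 18.5 and 17 and then 16.7, 14.7 and 19 CPM in the GFP mice, and 23.7, 18.2 and 26.5 and then 12.5, 8.75 and 9.38 CPM in the P16 mice (difference -1.07 (SE 0.25), adjusted p 0.0823). It fell in the P16 mice without overlap. Dbp, a clock output factor that swings over the day, had 0.904, 1 and 0.0748 CPM in GFP mice at 0 h and 24.4, 12.2 and 1.91 CPM in P16 mice at 0 h, and 23.9, 18 and 53.2 and 16.9, 17.6 and 17 CPM at 48 h. The GFP libraries at 0 h were all below the P16 libraries at 0 h, which ranged widely, and the arms overlapped at 48 h. The hour of tissue collection is not in the sources used here, and its part in the clock results was not tested.

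**Figure D5:**
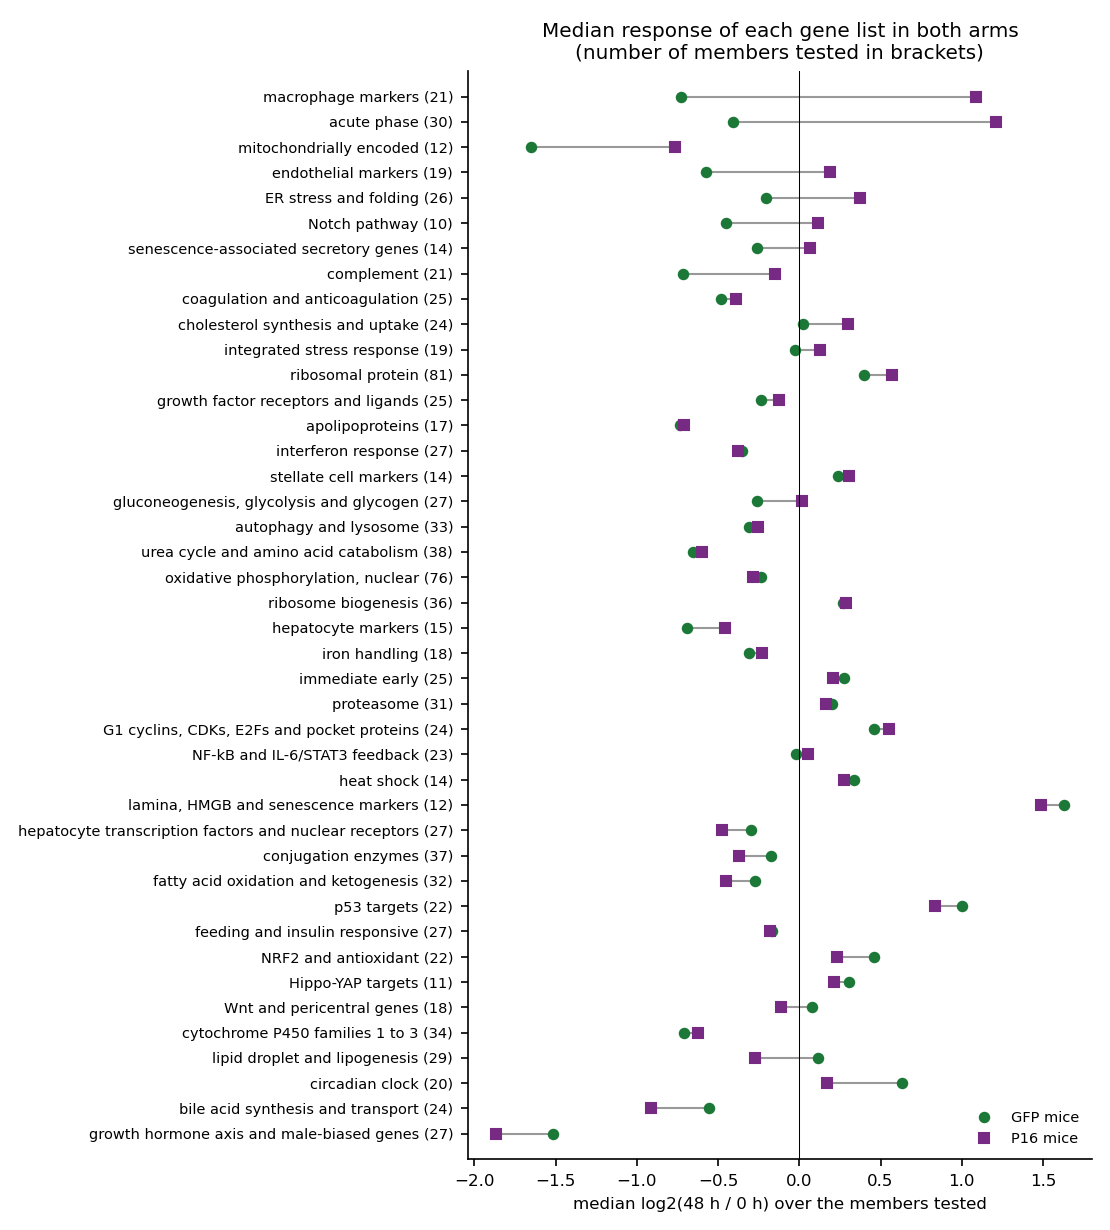
Median log2 change from 0 h to 48 h of each gene list with at least 10 members tested, in GFP mice (circles) and P16 mice (squares), ordered by the median difference of responses; the mitosis and DNA replication lists, which rose by 6.59 and 2.10 in GFP mice, are off this scale and left out. Macrophage markers, acute phase and mitochondrially encoded genes lie at the top, and growth hormone, bile acid and clock genes at the bottom.

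With all libraries, several lists were at or below the background of 11.8% at an unadjusted p under 0.05. They were ribosomal proteins (1.23% of 81), ribosome biogenesis (2.78% of 36), interferon response (3.7% of 27), cholesterol synthesis (4.17% of 24), proteasome (6.45% of 31), conjugation enzymes (8.11% of 37), Wnt and pericentral genes (0 of 18) and iron handling (11.1% of 18). Some of these shares rested on GFP replicate 2 at 0 h. Without it, 8 of 24 cholesterol synthesis genes (33.3%) were positive at an unadjusted p under 0.05 and none negative, and the share was 18.5% for interferon response and 12.3% for ribosomal proteins, against 12% of all genes. The cholesterol count was also 8 without both libraries that stood apart. Of 81 ribosomal protein genes, 45 rose in the GFP mice and 62 in the P16 mice, against 17.2% and 19.6% of all genes, and 74 had a positive difference. Their median was 0.20. With library size alone it was -0.07, where the median of all genes was -0.25.

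Of 1117 genes called in the GFP mice alone, none had a difference that passed, and of 1731 called in the P16 mice alone 5 did, namely Erbb3, Casp9, Grn, C3 and Gm379. Of all genes, 0.0979% passed. Both sets were defined by the responses that make up the difference, so these counts are not independent of it. The 5 GFP-arm genes with the largest difference were Gm42418, Parm1, Dbp, Crybb3 and Nbdy, with adjusted p from 0.174 to 0.354. The gene model Gm42418 had 3356, 1821 and 579 CPM in the GFP mice at 0 h and 4313, 1077 and 177 CPM in the P16 mice at 48 h, groups whose libraries overlapped; nearly all of its exon bases, 1822 of 1831, overlap other gene models. Parm1 had no read in the GFP mice at 0 h and 64 at 48 h, at least 13.1-fold higher with the floor of 3 reads over the group. In the P16 arm they were Mt2, Saa2, Bmper, Saa1 and Ecscr, with adjusted p from 0.125 to 0.336. Without GFP replicate 2 at 0 h, Mt2 and Bmper had unadjusted p of 0.9998 and 0.285. Ecscr, an endothelial surface protein, had no read in the P16 mice at 0 h and 71 at 48 h, at least 17.7-fold higher, and 0.602, 0.558 and 0.0748 and then 0.833, 1.1 and 0.792 CPM in the GFP mice.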

How the data were processed

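RNA sequencing of hepatocytes from 12 mice, 3 in each of 4 groups, gave a table of whole-number read counts per gene and library, which the authors deposited without normalization. Per the submitters' processing notes, the tools included STAR 2.5.0c and HTSeq, beside Trim Galore, Picard and SAMtools, and the build was mm10. Whether reads were counted by strand is not stated there. Reads in genes numbered 14617049 to 25409451 per library. Counts of reads in no feature or ambiguous between genes were left out; they came to 3.62% to 9.80% and 4.87% to 8.80%.

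The counts were scaled by TMM and filtered by filterByExpr, which kept 12257 of 31053 genes. They were tested with edgeR 4.0.16 (robust quasi-likelihood F test, all 12 libraries in 1 fit of group means) in R 4.3.3, with Benjamini-Hochberg adjustment over all genes tested and a threshold of 0.05. Every adjusted p in the text is from this fit unless another setting is named. Standard errors are the log2 value divided by the square root of F. CPM values use the TMM-scaled library size. Positions are from GENCODE M21, which matched 31011 gene rows. The script was also run on simulated counts with 200 changed genes. The simulation held no library that stood apart, and its outcome is not used here. Alternatives included DESeq2 1.42.0 and limma-voom (limma 3.58.1), other scalings and filters, and leaving out each library. Leaving out a pair of libraries, and the lists' counts without them, were chosen after seeing the data.

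The genes named are the vector's gene and 4 others; all genes past the test; the next genes by p with a mean of at least 5 CPM, to 30 in all; from each list, up to 4 members that passed, or, where none passed, the 2 lowest in p; and the largest differences among genes called in opposite directions or in 1 arm. Genes outside this rule, among them Ocln, Fgb and acute phase genes that passed only without a pair of libraries, were chosen after their values were seen. The lists and the comparison were chosen with earlier results of these data known.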

Additional observations from a re-analysis of the deposited data

Results flagged for a closer look

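The response to hepatectomy differed between the arms, by the test of the difference itself (edgeR quasi-likelihood, adjusted p under 0.05), in 12 genes. The log2 difference of responses was higher in the P16 mice for Gm379 (4.72), C3 (1.40), Grn (1.24) and Zdhhc20 (1.23). It was lower for Tcp11l2 (-1.85), Mup1 (-1.51), Mup7 (-1.49), Erbb3 (-1.43), Casp9 (-1.41), Ugt3a1 (-1.05), Bcar1 (-1.04) and Atxn2 (-0.995). No group had the 4 or more libraries needed to test single libraries as outliers.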

How the results depend on the processing

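The count of genes whose difference of responses passed was 12 as reported and with RLE size factors. It was 6 with upper quartile factors, 93 with library size alone (8 higher, 85 lower, with the median of all genes at -0.25), 173 with no filter on low counts, 6 with a stricter filter, 4 with non-robust dispersions, 225 with DESeq2 and 1 with limma-voom. Leaving out 1 library gave 2 to 76. The count was 76 without GFP replicate 1 at 0 h, 19 without GFP replicate 2 at 0 h, 2 without GFP replicate 1 or replicate 3 at 48 h, 30 without P16 replicate 2 at 0 h, 4 without P16 replicate 2 at 48 h and 35 without P16 replicate 3 at 48 h. It was 28 without GFP replicate 2 at 0 h and P16 replicate 2 at 48 h together, 19 of them higher. The cause of these shifts was not tested. All 12 genes kept their direction in the 22 alternatives. The GFP response count of 4117 became 6197 with library size alone (5528 higher, 669 lower), and the P16 response count of 4731 stayed within 1.5 times in all 22. With the replicate number as a block, 44 genes passed (19 higher, 25 lower). Deviations of same-numbered libraries correlated at -0.048 to 0.061 over 18 pairs and those of different numbers at -0.12 to 0.077. Whether same-numbered libraries shared a batch was not tested.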
